A study of Mus musculus with 24 samples.

Results

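Matrix metalloproteinases are zinc-dependent enzymes that cut collagens, laminins and other proteins outside the cell, and tissue inhibitors of metalloproteinases (Timps) bind their active site and block it. Most are secreted as inactive proenzymes, and a few, such as Mmp14, stay anchored in the cell membrane. In the mammary gland the balance of protease and inhibitor is known to set how the basement membrane and the collagen of the fat pad are remodeled, and tumor cells and host cells of a tumor both make these genes. Transcripts of 10 such genes were followed here, 7 metalloproteinases (Mmp2, Mmp3, Mmp9, Mmp11, Mmp13, Mmp14 and Mmp19) and 3 inhibitors (Timp1, Timp2 and Timp3). They were chosen by gene symbol, out of 35275 genes listed for cultured cells and 54532 listed for tumors, and all 10 are listed in both tables.

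RNA-seq was available for cultured D2.1 and D2A1 cells (3 libraries of each) and for tumors of D2.1 or D2A1 cells grown in the fat pad of the mammary gland, in female BALB/c hosts (4 of each) or female SCID-beige hosts (5 of each). D2A1 and D2.1 are BALB/c mouse mammary tumor lines, the first of which grows rapidly in mice whereas D2.1 can stay dormant. BALB/c mice are immunocompetent, and SCID-beige mice lack T and B cells and have impaired natural killer cells but keep macrophages and neutrophils. Each behavior in mice is represented by a single cell line, and the tumors were collected whole at a set size, so their RNA includes that of host cells. The labels give no age for the mice and no treatment. Values are counts scaled to the library total (CPM) for a gene across groups, and FPKM, the deposited value per length, for different genes within a table.

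Libraries of cultured cells held 16837260 to 24818234 counts and those of tumors 13566949 to 18355153, so that 3 counts, taken as the floor, equal 0.121 to 0.178 CPM and 0.163 to 0.221 CPM. These limits cover counting error only. The 5 T cell markers summed to 49.8 to 134 CPM in BALB/c tumors of D2.1 and to 4.92 to 12.9 CPM in SCID-beige tumors. For D2A1 the sums were 5.42 to 20.1 and 0.713 to 2.80 CPM. Most of the SCID-beige sums was Cd4, with means of 7.43 CPM in D2.1 and 1.64 CPM in D2A1 tumors. There Cd3d, Cd3e, Cd3g and Cd8a had means of at most 0.692 CPM in D2.1 and 0.117 CPM in D2A1 tumors. Keratins 8, 18 and 14, Cdh1 and Epcam, markers of mammary epithelium, summed to 2395 to 4236 CPM in cultured D2.1 cells but to 141 to 350.0 CPM in cultured D2A1 cells. A few libraries carried transcripts of other tissue. Replicate 1 of the D2.1 tumors in BALB/c mice had 271 CPM of milk proteins, against at most 0.736 CPM in the other 3, with 335 CPM of skeletal muscle and 305 CPM of adipocyte markers (29.4 to 94.3 and 17.2 to 98.7 CPM in the other 3). Replicate 4 had 149 CPM of skin keratins and loricrin. Replicates 4 and 5 of the D2.1 tumors in SCID-beige mice had 232 and 186 CPM of muscle markers, against 0.701 to 15.2 CPM in the other 3. Results that rest on these tumors are also given without them. In whole tumors, fewer cells of a type and less RNA per cell cannot be told apart. The labels do not say whether cultured replicates came from separate cultures or stocks, so p-values measure only the spread between these libraries, which may be technical.

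On the scale of FPKM, Timp1 had the highest mean of the 10 transcripts in cultured cells of either line, at 550.1 ± 62.1 FPKM (SD, n = 3) in D2.1 and 138 ± 30.9 FPKM in D2A1 cells. Timp2 (132 and 111 FPKM) and Mmp14 (108 and 106 FPKM) came next, and the ranges of these 2 genes overlapped. In D2A1 cells the range of Timp1 overlapped both, and replicate 3 had 102 FPKM of Timp1 beside 136 FPKM of Timp2 and 119 FPKM of Mmp14. Mmp14 held 92.3% and 92.2% of the summed FPKM of the 7 metalloproteinases in D2.1 and D2A1 cells. The other 6 metalloproteinases were at or below 7.45 FPKM on average in culture. In tumors Mmp14 held 57.4% to 80.6% of that sum as group means, and the rest was mostly Mmp9 in D2.1 tumors, with 23.7% in BALB/c and 30.8% in SCID-beige mice. In D2A1 tumors the share of Mmp9 was 5.69% and 5.79%. The lengths behind FPKM differ between the cell and the tumor table for most of these genes, such as 3175 and 1294 bases for Mmp9. FPKM, its sums and shares were therefore read only within a table, and shares in culture cannot be set against those in tumors. Within the tumor table they rest on lengths that hold 1419 of 5960 exon bases for Mmp14 but all 2673 for Mmp13.

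**Figure D1:**
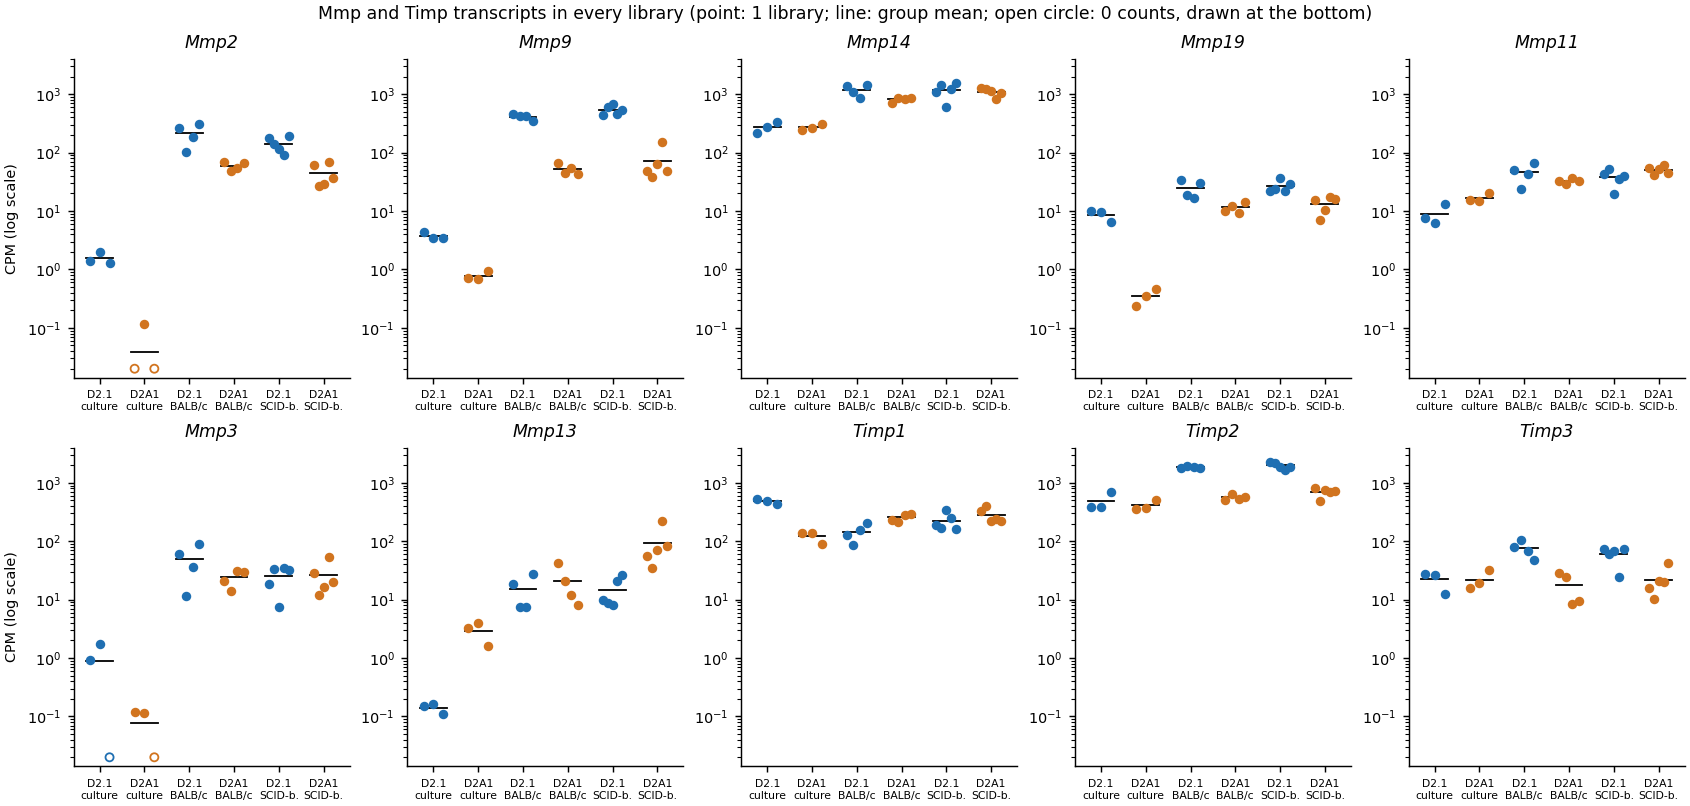
Level of each of the 10 transcripts in CPM on a log scale, with 1 point per library, a line at the group mean and open circles for libraries with 0 counts. Mmp9 in D2.1 tumors (353 to 682 CPM) lies above D2A1 tumors (38.6 to 155 CPM) in either host, and Timp1 is highest in cultured D2.1 cells (427 to 536 CPM).

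The first question was how the lines differ in culture, where no host cells are present. Cultured D2.1 cells had more Mmp2, Mmp9, Mmp19 and Timp1 transcript than D2A1 cells and less Mmp13 and Mmp11, whereas the ranges of Mmp14, Timp2 and Timp3 overlapped between the lines. Of 9 members that passed edgeR's filter, 4 were higher and 2 lower in D2.1 cells (edgeR quasi-likelihood test with Benjamini-Hochberg adjusted p under 0.05). Among all genes tested in culture the share called was 44.9%. With each library left out, 5 to 7 members were called.

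Mmp2 and Mmp9, the gelatinases that cut denatured collagen and basement membrane collagen, were low in culture. Mmp9 was at 4.45, 3.42 and 3.45 CPM in cultured D2.1 and at 0.713, 0.695 and 0.925 CPM in cultured D2A1 cells. The lines did not overlap, and the log2 fold change was 2.40 ± 0.30 (SE, adjusted p = 2.9e-04, edgeR). Mmp2 was at 1.38, 1.97 and 1.31 CPM in cultured D2.1, whereas the D2A1 cultures held 2 counts in 1 library and none in the others. From 100 counts against 2, the ratio of the lines was 41.0, with an exact 95% counting interval of 11.1 to 343 (adjusted p = 6.0e-04, edgeR). Here and below, such intervals pool the counts of a group and leave out the spread between its libraries. Over all genes that spread was 4.96 to 117 times counting error (chi-square per degree of freedom, 38 pairs of replicates). Mmp19, which cuts matrix proteins other than fibrillar collagen, was at 10.1, 9.55 and 6.40 CPM in cultured D2.1 and at 0.238, 0.347 and 0.462 CPM in D2A1 cells. Its lines were far apart, with a log2 fold change of 4.75 ± 0.37 (adjusted p = 1.7e-05, edgeR). Exons of Mmp19 share 789 bases with Tmem198b on the other strand, and since the strand used in counting was not given in the sources used here, reads of these 2 genes cannot be told apart there.

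Mmp13 is a collagenase that opens fibrillar collagen, Mmp3 is a stromelysin that also activates other proenzymes, and both lie in the Mmp cluster of chromosome 9. Mmp13 was lower in cultured D2.1 cells. It was at 3.21, 4.05 and 1.62 CPM in D2A1 cells, and D2.1 libraries held 3, 4 and 2 counts (0.153, 0.161 and 0.109 CPM), close to the floor. The log2 fold change was -4.19 ± 0.53 (adjusted p = 3.0e-04, edgeR), and from 152 counts against 9 the ratio of D2A1 to D2.1 was 20.6 (exact 95% counting interval 10.6 to 45.9). Mmp3 did not pass the filter, with 18, 44 and 0 counts in D2.1 and 2, 2 and 0 counts in D2A1 cultures. Its libraries of D2.1 spread from 0 to 1.77 CPM and overlapped those of D2A1. Without replicate 3 of the D2.1 cultures, the library with 0 counts, Mmp3 passed the filter and was called higher in D2.1 cells, at 4.20 ± 0.73 (adjusted p = 0.0023, edgeR). Mmp11, a stromelysin that furin activates inside the cell, was at 7.46, 6.16 and 13.3 CPM in D2.1 and at 15.5, 14.9 and 20.7 CPM in D2A1 cells. The groups did not overlap (log2 fold change -0.81 ± 0.26, adjusted p = 0.032, edgeR), but the call was lost in 4 of 6 fits with 1 library left out (adjusted p up to 0.11, edgeR).

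In the chromosome 9 cluster, Mmp13 and Mmp10 were lower in cultured D2.1 cells. Mmp3 had 62 counts in D2.1 against 4 in D2A1 cultures and did not pass the filter. Stretches of promoter are shown for these genes and for Mmp14 and Timp2, which had high counts in every library. They are the 110 bases before the RefSeq start site, 5′ to 3′ on the strand of the gene, on GRCm38.p6. Capitals mark TGANTCA, the AP-1 site bound by Fos and Jun proteins, TATAAA, the TATA box, and GGGCGG, the GC box, each searched on both strands. TGANTCA is its own reverse complement, so that 1 match counts for both strands, and no motif overlapped another in these stretches.
Mmp13, chr9:7272404-7272513, + strand: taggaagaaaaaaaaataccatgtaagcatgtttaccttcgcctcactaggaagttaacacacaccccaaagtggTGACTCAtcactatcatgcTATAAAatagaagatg
Mmp3, chr9:7445712-7445821, + strand: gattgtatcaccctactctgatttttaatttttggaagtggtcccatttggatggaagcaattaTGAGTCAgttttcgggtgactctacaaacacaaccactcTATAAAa
Mmp10, chr9:7502232-7502341, + strand: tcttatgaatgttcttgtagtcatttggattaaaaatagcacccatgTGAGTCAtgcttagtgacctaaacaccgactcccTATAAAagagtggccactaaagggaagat
Mmp14, chr14:54431488-54431597, + strand: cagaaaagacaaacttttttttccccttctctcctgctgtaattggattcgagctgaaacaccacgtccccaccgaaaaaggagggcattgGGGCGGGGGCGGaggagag
Timp2, chr11:118355412-118355521, - strand: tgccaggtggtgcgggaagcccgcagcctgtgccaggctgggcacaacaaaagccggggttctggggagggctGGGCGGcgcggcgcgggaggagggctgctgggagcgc

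Mmp13, Mmp3 and Mmp10 each hold 1 TGANTCA, which begins 35, 46 and 63 bases before the start, with 1 TATAAA between it and the start. The other members with a RefSeq promoter, Mmp11, Mmp14, Timp1, Timp2 and Timp3, hold neither motif within 250 bases before and 50 after the start, and each holds at least 1 GGGCGG. Of 32851 RefSeq promoters of the same 300 bases, 7.81% hold TGANTCA, 13.6% hold TATAAA and 35.7% hold GGGCGG. Promoters of 7 of the 10 members were matched. Mmp2, Mmp9 and Mmp19 had no entry.

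Timp1, an inhibitor secreted by many cells under inflammatory or growth factor signals, was the inhibitor that set the cultured lines apart. D2.1 libraries had 536, 495 and 427 CPM and D2A1 libraries 137, 137 and 89.9 CPM. D2.1 was higher in every library, with a log2 fold change of 2.13 ± 0.22 (adjusted p = 9.0e-05, edgeR). Timp2, which inhibits Mmp2 and also takes part in its activation by Mmp14, was at 381, 384 and 707 CPM in D2.1 and 354, 371 and 505 CPM in D2A1 cells. The lines overlapped and the difference was not called (log2 fold change 0.37 ± 0.23, adjusted p = 0.22, edgeR). With the replicate number as a block, it was called, at 0.34 (adjusted p = 0.0090, edgeR). Timp3, which binds to the matrix, was at 28.0, 26.8 and 12.3 CPM in D2.1 and 15.6, 18.9 and 31.7 CPM in D2A1 cells, and Mmp14 was at 221, 278 and 341 CPM against 249, 266 and 310.1 CPM. Neither was called (log2 fold changes 0.18 ± 0.36 and 0.15 ± 0.16, adjusted p = 0.71 and 0.47, edgeR). The summed FPKM of the 3 inhibitors was 669.6 to 715 in D2.1 and 245 to 259 in D2A1 cells, beside 93.8 to 141 and 104 to 129 for the 7 metalloproteinases. The library ratios of inhibitor to protease were 4.81 to 7.62 in D2.1 and 1.89 to 2.44 in D2A1 cells.

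The next question was how tumors of the lines differ within a host. In BALB/c mice, D2.1 tumors had more Mmp9, Timp3, Mmp2, Timp2, Mmp19 and Mmp14 transcript than D2A1 tumors and less Timp1. In SCID-beige mice the first 5 of these genes were again higher in D2.1 tumors, and Mmp13 was lower. Of 10 members tested in BALB/c tumors, 6 were called higher and 1 lower in D2.1 (share called among all genes 32.6%). In SCID-beige tumors 5 were called higher and 1 lower (32.1% of all genes). The median log2 fold change of the 10 members was 1.14 and 0.61, and that of all genes tested was -0.02 and 0.02. With 1 library left out, 5 to 8 members were called in BALB/c tumors and 6 in every such fit of SCID-beige tumors, as also without replicates 4 and 5 of D2.1 together, those with muscle transcripts. Without replicates 1 and 4 of the D2.1 tumors, those with milk and skin transcripts, 5 were called in BALB/c tumors, and Mmp19 and Mmp14 were no longer called (log2 fold changes 0.68 and 0.30, adjusted p = 0.11 and 0.36, edgeR).

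**Figure D2:**
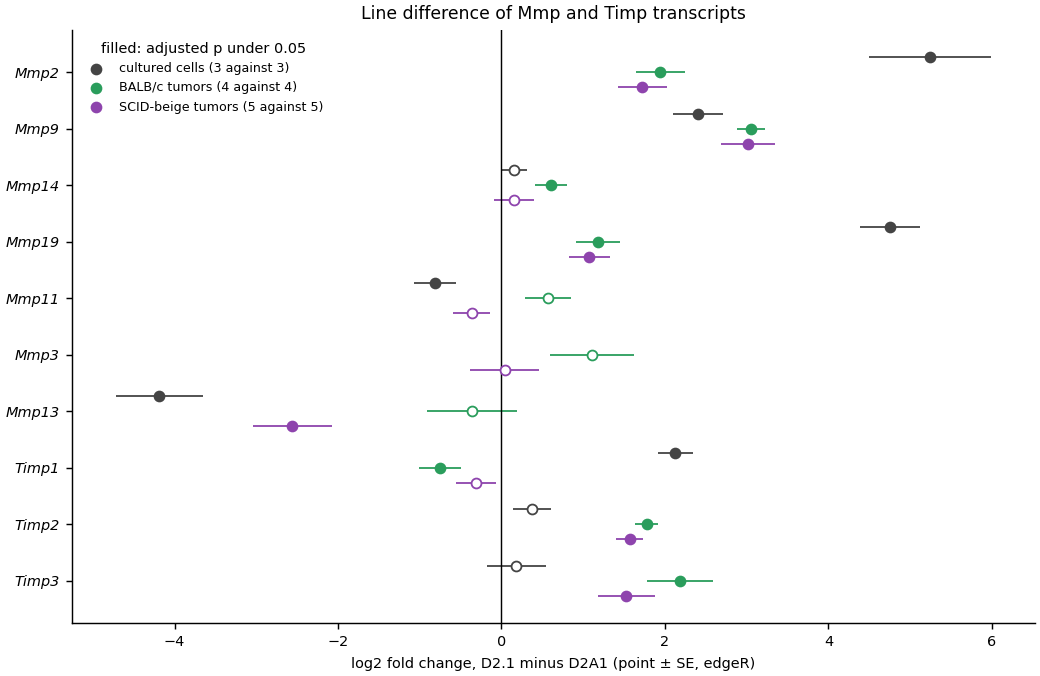
Log2 fold change of D2.1 over D2A1 with its SE (edgeR) for each transcript in culture, BALB/c tumors and SCID-beige tumors, filled where the adjusted p was under 0.05. Mmp9 lies between 2.40 and 3.05 in all 3 settings, Timp1 changes sign between culture (2.13) and BALB/c tumors (-0.76), and Mmp3 has no point in culture because it did not pass the filter.

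Mmp9 differed most among the 10 members between the tumors of the lines. In BALB/c mice D2.1 tumors had 457, 427, 425 and 353 CPM and D2A1 tumors 67.4, 45.1, 54.4 and 43.5 CPM, an 8.31-fold difference (log2 fold change 3.05 ± 0.17, adjusted p = 1.2e-06, edgeR). In SCID-beige mice D2.1 tumors had 446, 609, 682, 458 and 537 CPM and D2A1 tumors 49.3, 38.6, 64.3, 155 and 48.5 CPM, 8.07-fold (3.01 ± 0.33, adjusted p = 1.3e-05, edgeR). No D2A1 tumor reached the lowest D2.1 tumor, and replicate 4 of the D2A1 tumors in SCID-beige mice stood apart from its group. That tumor also had the highest sum of 6 neutrophil markers among all 18, at 167 CPM against 32.7 to 55.3 CPM in the other 4 of its group. Across the groups, the neutrophil sums were 57.6 to 88.9 CPM in D2.1 and 27.1 to 49.2 CPM in D2A1 tumors of BALB/c mice, with 2 of 4 tested markers called higher in D2.1, and 38.7 to 131 and 32.7 to 167 CPM in SCID-beige mice, with 1 of 5. Of the list, Ly6g was at or under the floor in every tumor. In SCID-beige mice the means of Csf3r and Cxcr2 were higher in D2.1 than in D2A1 tumors (49.8 and 7.62 against 21.1 and 3.04 CPM). Those of S100a8, S100a9 and Retnlg were lower (11.9, 24.4 and 0.614 against 12.9, 27.5 and 1.66 CPM). Neutrophils are known to store Mmp9. The part of these cells in the levels of Mmp9 was not tested.

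Mmp2 in BALB/c mice was at 265, 104, 182 and 315 CPM in D2.1 tumors and 68.5, 48.6, 53.8 and 66.9 CPM in D2A1 tumors. The groups did not overlap (log2 fold change 1.94 ± 0.30, adjusted p = 8.3e-04, edgeR). In SCID-beige mice it was at 178, 141, 114, 89.7 and 191 CPM against 61.6, 26.4, 29.2, 69.8 and 36.6 CPM, again without overlap (1.72 ± 0.30, adjusted p = 6.0e-04, edgeR). Mmp14, which sits in the membrane and activates Mmp2, was at 1378, 1106, 847 and 1453 CPM in D2.1 and at 722, 879, 828 and 875 CPM in D2A1 tumors of BALB/c mice. The groups overlapped, the log2 fold change was 0.61 ± 0.19 (adjusted p = 0.033, edgeR), and the call was lost in 6 of 8 fits with 1 library left out. In SCID-beige mice the 2 groups spanned 595 to 1587 and 817 to 1303 CPM, with a log2 fold change of 0.15 ± 0.24 (adjusted p = 0.67, edgeR). Mmp19 in BALB/c mice was at 33.6, 18.6, 16.7 and 30.4 CPM in D2.1 tumors and 10.1, 12.4, 9.42 and 14.2 CPM in D2A1 tumors (1.18 ± 0.27, adjusted p = 0.0072, edgeR). In SCID-beige mice the D2.1 tumors had 21.7, 23.5, 36.3, 22.3 and 29.3 CPM and the D2A1 tumors 15.2, 6.98, 10.3, 17.1 and 16.0 CPM (1.08 ± 0.25, adjusted p = 0.0047, edgeR), and in neither host did the lines overlap.

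Mmp13 was higher in D2A1 tumors of SCID-beige mice, the one metalloproteinase of the 7 that was called in that direction in tumors. D2A1 tumors there had 55.3, 34.6, 70.3, 225 and 81.8 CPM and D2.1 tumors 9.88, 8.84, 8.21, 20.9 and 26.7 CPM, with no overlap (log2 fold change -2.56 ± 0.48, adjusted p = 0.0011, edgeR). Without replicate 4 of D2A1 the value was -1.96 (adjusted p = 0.0019, edgeR), and without replicates 4 and 5 of D2.1 it was -3.30 (adjusted p = 7.7e-04, edgeR). In BALB/c mice D2A1 tumors had 42.7, 20.99, 12.2 and 7.995 CPM and D2.1 tumors 18.8, 7.61, 7.50 and 27.1 CPM, which overlapped (-0.36 ± 0.55, adjusted p = 0.66, edgeR). Whether the line difference of Mmp13 differs between hosts is the test of line by host given further on, and it was not called. Mmp3 spread widely within each group, from 11.6 to 88.4 CPM in D2.1 and 14.0 to 31.3 CPM in D2A1 tumors of BALB/c mice and from 7.63 to 35.3 and 12.1 to 52.9 CPM in SCID-beige mice. It was called in neither host (1.11 ± 0.51 and 0.04 ± 0.43, adjusted p = 0.12 and 0.96, edgeR). Without replicate 2 of the D2.1 tumors, the lowest library, it was called in BALB/c mice at 1.43 (adjusted p = 0.010, edgeR). Of the D2.1 tumors then left, replicates 1 and 4, those with milk and skin transcripts, had 60.9 and 88.4 CPM and replicate 3 had 36.1 CPM. Mmp11 ranged from 23.9 to 67.1 CPM in D2.1 and 28.6 to 36.4 CPM in D2A1 tumors of BALB/c mice, and from 19.6 to 52.7 and 41.8 to 62.5 CPM in SCID-beige mice. It was not called (0.57 ± 0.28 and -0.36 ± 0.23, adjusted p = 0.14 and 0.25, edgeR), although without the same replicate 2 it was in BALB/c mice, at 0.78 (adjusted p = 0.015, edgeR). Replicates 1 and 4 were again the highest D2.1 tumors, at 50.3 and 67.1 CPM against 44.0 CPM in replicate 3. With replicates 1 and 4 left out and replicate 2 kept, neither Mmp3 nor Mmp11 was called in BALB/c mice.

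Timp2 separated the tumors of the lines with little spread. It was at 1763, 1923, 1854 and 1786 CPM in D2.1 and 512, 632, 535 and 566 CPM in D2A1 tumors of BALB/c mice (log2 fold change 1.78 ± 0.14, adjusted p = 9.2e-06, edgeR). In SCID-beige mice D2.1 tumors had 2318, 2184, 1867, 1659.9 and 1898 CPM and D2A1 tumors 811, 498, 751, 696 and 718 CPM (1.57 ± 0.16, adjusted p = 8.7e-06, edgeR). Every D2.1 tumor had more than any D2A1 tumor in its host. Timp3 was at 81.0, 107, 68.3 and 46.9 CPM against 28.3, 24.5, 8.34 and 9.50 CPM in BALB/c mice, without overlap (2.18 ± 0.41, adjusted p = 0.0025, edgeR). In SCID-beige mice it was at 72.2, 60.1, 67.9, 24.1 and 73.8 CPM against 15.5, 10.3, 20.5, 20.2 and 42.0 CPM, and replicate 4 of D2.1 fell within the D2A1 range (1.53 ± 0.35, adjusted p = 0.0043, edgeR). Timp3 shares 1733 exon bases with Syn3 on the other strand, which had at most 11 counts in any tumor.

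Timp1 went the other way in BALB/c tumors. D2.1 tumors had 126, 84.9, 157 and 209 CPM and D2A1 tumors 232, 213.5, 284 and 296 CPM, with no overlap but a gap of only a few CPM (log2 fold change -0.76 ± 0.26, adjusted p = 0.044, edgeR). The call was lost in 6 of 8 fits with 1 library left out (adjusted p up to 0.11, edgeR). In SCID-beige mice D2.1 tumors had 190.4, 168, 346, 247 and 163 CPM and D2A1 tumors 328, 395, 223, 243 and 222 CPM, which overlapped (-0.31 ± 0.25, adjusted p = 0.37, edgeR). As a sum on the scale of FPKM, the 3 inhibitors were at 979.6 to 1071 in D2.1 and 514 to 605 in D2A1 tumors of BALB/c mice, and at 1048 to 1301 and 601 to 755 in SCID-beige mice. The 7 metalloproteinases summed to 1124 to 1652 and 672 to 754 FPKM in BALB/c and to 1070 to 1746 and 880.2 to 1094 FPKM in SCID-beige mice. The library ratio of inhibitor to protease ran from 0.608 to 0.934 in D2.1 and 0.741 to 0.803 in D2A1 tumors of BALB/c mice, and the lines overlapped. In SCID-beige mice the ratio ran from 0.618 to 1.19 and from 0.629 to 0.717. These sums and ratios rest on the gene lengths of the tumor table and cannot be set against those in culture.

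Marker lists of fibroblasts and endothelium also differed between tumors of the lines. The 6 fibroblast markers summed to 9195 to 15509 CPM in D2.1 and 1939 to 3292 CPM in D2A1 tumors of BALB/c mice, with 6 of 6 called higher in D2.1. In SCID-beige mice the sums were 6738 to 14902 and 1419 to 3859 CPM, with 5 of 6 called higher. In culture, where no host tissue is present, the same list summed to 1800 to 2793 CPM in D2.1 and 131 to 149 CPM in D2A1 cells, and Dcn and Lum were at or under the floor in every cultured library. There 4 of 4 tested were called higher in D2.1 cells (44.9% of all genes were called), so the list does not mark host cells alone. Macrophage sums were 1561 to 1822 against 1278 to 2404 CPM in BALB/c and 801 to 1879 against 735 to 1202 CPM in SCID-beige mice, with 1 and 3 of 6 markers called higher in D2.1 tumors. Endothelial sums were lower in D2.1 tumors, at 84.9 to 145 against 224 to 298 CPM and 58.9 to 95.8 against 211.9 to 299 CPM, with 4 and 5 of 5 markers called. The part of fibroblasts, macrophages and vessels in the levels of the 10 transcripts was not tested.

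**Figure D3:**
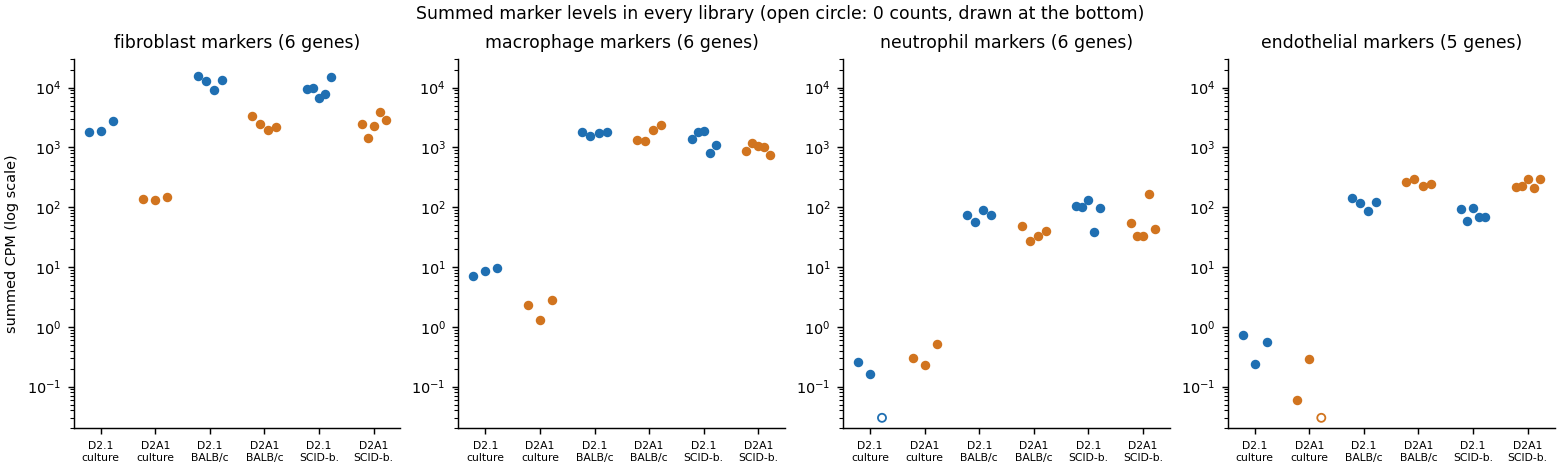
Summed level of fixed marker lists of fibroblasts, macrophages, neutrophils and endothelium in CPM on a log scale, with 1 point per library. Fibroblast markers are higher and endothelial markers lower in D2.1 than in D2A1 tumors, and neutrophil markers sum to at most 0.520 CPM in cultured cells.

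Whether the host changed these transcripts was asked for each line. None of the 10 members was called between BALB/c and SCID-beige tumors of either line by edgeR, with shares of 0.891% (D2.1) and 1.17% (D2A1) called among all genes. At an unadjusted p under 0.05 there were 1 member in D2.1 tumors (Mmp9) and 3 in D2A1 tumors (Mmp11, Mmp13 and Mmp14), and DESeq2 called 0 and 2. Over all genes the unadjusted p was under 0.05 for 1489 of 14929 in D2.1 and 1472 of 14572 in D2A1 tumors. With simulated counts of the D2A1 comparison, 13.48% of the calls by DESeq2 and 5.34% of those by edgeR were false. Those counts were drawn with the spread fitted by edgeR, so they cannot show whether the calls of members by DESeq2 are false. In D2A1 tumors Mmp11 was at 33.2, 28.6, 36.4 and 33.1 CPM in BALB/c and 54.4, 41.8, 52.8, 62.5 and 44.3 CPM in SCID-beige mice. The hosts did not overlap, at a log2 fold change of -0.66 ± 0.16 (adjusted p = 0.074, edgeR, and 0.0045, DESeq2). Mmp13 in the same tumors differed by -2.18 ± 0.57 (adjusted p = 0.10, edgeR, and 0.025, DESeq2), from 7.995 to 42.7 CPM in BALB/c and 34.6 to 225 CPM in SCID-beige mice, with overlap. In D2.1 tumors Mmp9 was somewhat lower in BALB/c mice (-0.38 ± 0.15, adjusted p = 0.40, edgeR), and Mmp13 hardly differed (0.06 ± 0.47, adjusted p = 0.99, edgeR).

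The test of line by host asks whether the host difference itself differs between the lines. None of the 10 members was called by edgeR, beside 0.0187% of all genes, and DESeq2 called 0. At an unadjusted p under 0.05 there were 2 members, beside 1355 of 16036 genes tested. The members were Mmp13 and Mmp11, with differences of 2.20 ± 0.78 and 0.92 ± 0.37 on the log2 scale (adjusted p = 0.42 and 0.51, edgeR). For Mmp9, Mmp19 and Timp2 the differences were 0.04 ± 0.39, 0.10 ± 0.37 and 0.20 ± 0.20.

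SCID-beige tumors were next compared with cultured cells of the same line. Most of the transcripts were more abundant in tumors. The exceptions were Timp1, which was lower in D2.1 tumors, and Timp3, which was not called in D2A1. In D2.1, 9 of 10 members were higher and 1 lower in tumors (53.1% of all genes were called), and in D2A1, 9 of 10 were higher (58.1% of all genes). The median log2 fold change of the members was 1.96 and 3.39, and that of all genes was 0.09 and 0.10. Tumor and culture also differ in host cells, in RNA handling and in the table and its gene lengths, and these cannot be told apart from an effect of growth in the fat pad. Macrophage markers rose from at most 9.57 CPM in cultured libraries to at least 735 CPM in tumors, and Ly6g was at or under the floor in all of them.

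**Figure D4:**
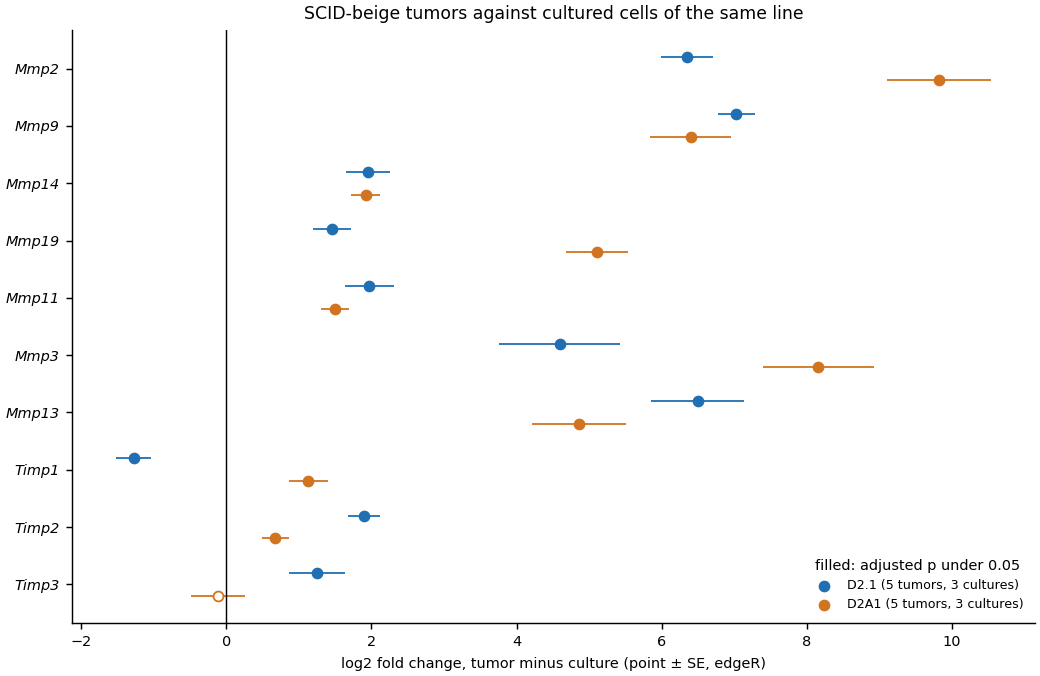
Log2 fold change of SCID-beige tumors over cultured cells with its SE (edgeR) for each line, filled where the adjusted p was under 0.05. Mmp2 and Mmp19 lie further to the right in D2A1 (9.82 and 5.11) than in D2.1 (6.35 and 1.46), and Timp1 lies on opposite sides of 0.

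Mmp9 went from 3.42 to 4.45 CPM in cultured D2.1 cells to 446 to 682 CPM in tumors, a log2 fold change of 7.03 ± 0.26 (adjusted p = 3.2e-08, edgeR). In D2A1 it went from 0.695 to 0.925 CPM to 38.6 to 155 CPM (6.40 ± 0.56, adjusted p = 2.9e-06, edgeR). Mmp2 rose from 1.31 to 1.97 CPM to 89.7 to 191 CPM in D2.1 (6.35 ± 0.36, adjusted p = 2.8e-07, edgeR). In D2A1, where culture had only 2 counts, the ratio of the group totals was 1156 with an exact 95% counting interval of 320 to 9553 (adjusted p = 6.9e-07, edgeR). Mmp14 rose alike in size in the lines, with log2 fold changes of 1.95 ± 0.30 in D2.1 and 1.92 ± 0.20 in D2A1 (adjusted p = 3.1e-04 and 1.2e-05, edgeR), and 0 of the tumors overlapped the cultures.

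Mmp13 rose from near the floor to 8.21 to 26.7 CPM in D2.1 tumors, with 1260 counts against 9 and a ratio of 103 (exact 95% counting interval 53.9 to 225, adjusted p = 1.3e-05, edgeR). Its fitted log2 fold change was 6.50, and 5.77 without replicates 4 and 5 of the tumors. In D2A1 its log2 fold change was 4.86 ± 0.65 (adjusted p = 7.2e-05, edgeR), and 4.26 without replicate 4 of the D2A1 tumors. Mmp3 rose in D2.1 by 4.59 ± 0.83 (adjusted p = 8.9e-04, edgeR), a value that was 5.61 without replicate 2 of the D2.1 cultures, the one with 44 counts (adjusted p = 0.0024, edgeR). It rose in D2A1 from 4 counts to 1963, a ratio of 338 (exact 95% counting interval 132 to 1243, adjusted p = 5.0e-06, edgeR). Mmp11 rose by 1.97 ± 0.34 and 1.50 ± 0.19 (adjusted p = 5.9e-04 and 4.9e-05, edgeR). Mmp19 rose by 1.46 ± 0.26 in D2.1 and by 5.11 ± 0.42 in D2A1 (adjusted p = 8.2e-04 and 1.9e-06, edgeR).

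Among the inhibitors, Timp1 fell by 1.28 ± 0.24 on the log2 scale in D2.1, from 427 to 536 CPM in culture to 163 to 346 CPM in tumors, without overlap (adjusted p = 0.0011, edgeR). In D2A1 it rose by 1.13 ± 0.27, from 89.9 to 137 CPM to 222 to 395 CPM (adjusted p = 0.0035, edgeR). Timp2 rose by 1.90 ± 0.22 in D2.1 and by 0.68 ± 0.18 in D2A1 (adjusted p = 4.7e-05 and 0.0083, edgeR). The D2A1 call was lost without replicate 1 of the D2A1 cultures (adjusted p = 0.054, edgeR). Timp3 rose by 1.25 ± 0.39 in D2.1 (adjusted p = 0.018, edgeR), where 1 tumor overlapped the cultures, and that call was lost without replicate 3 of the D2.1 cultures (adjusted p = 0.070, edgeR). In D2A1 it differed by -0.12 ± 0.37 (adjusted p = 0.81, edgeR), and with the replicate number as a block it was called lower in tumors, at -0.56 (adjusted p = 0.023, edgeR).

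A last comparison tested whether the difference between the lines was itself different in SCID-beige tumors and in culture. It was for 4 of 10 members, beside 12.8% of all genes, with 3 lower and 1 higher. The line difference of Mmp19 was smaller in tumors by 3.67 ± 0.47 on the log2 scale (adjusted p = 3.0e-05, edgeR), and D2.1 was still the higher line in tumors. That of Timp1 changed by -2.42 ± 0.38 (adjusted p = 2.3e-04, edgeR). In the tumors it was -0.31 ± 0.25, of the opposite sign to culture but not called (adjusted p = 0.37, edgeR). That of Mmp2 shrank by 3.50 ± 0.98 (adjusted p = 0.023, edgeR), a value that rests on the 2 counts of D2A1 cells and whose call was lost when replicate 2 of the D2.1 or replicate 1 or 3 of the D2A1 cultures was left out (adjusted p up to 0.096, edgeR). Without replicate 2 of the D2A1 cultures, which holds those counts, it was -6.17 (adjusted p = 0.021, edgeR), a size that depends on the prior count. That of Timp2 grew by 1.21 ± 0.28 (adjusted p = 0.0070, edgeR). For Mmp9 the change was 0.62 ± 0.57 (adjusted p = 0.57, edgeR), and without replicate 4 of the D2A1 tumors it was 1.10 (adjusted p = 0.028, edgeR). For Timp3 it was 1.35 ± 0.57 (adjusted p = 0.14, edgeR), and without replicate 5 of the same tumors 1.72 (adjusted p = 0.031, edgeR). For Mmp3 it was -3.57 ± 1.36 (adjusted p = 0.10, edgeR), called without replicate 3 of the D2.1 cultures at -4.13 (adjusted p = 0.022, edgeR) and with the replicate block at -3.54 (adjusted p = 0.049, edgeR).

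Other metalloproteinases were counted from a list of 17 genes, the remaining Mmps with Timp4. In culture 3 of the 4 tested were higher and 1 lower in D2.1 cells, in BALB/c tumors 3 of 9 were higher and 1 lower, and in SCID-beige tumors 2 of 8 were higher and 2 lower. Among all genes tested, 44.9% were called in culture, 32.6% in BALB/c tumors and 32.1% in SCID-beige tumors. Mmp10, a stromelysin next to Mmp3 on chromosome 9, had 0 counts in every cultured D2.1 library and 12.9 ± 0.374 CPM in D2A1 cells, at least 88.5-fold lower against a floor of 3 counts per library. It was also lower in D2.1 tumors, at 0 to 2.07 against 44.9 to 67.2 CPM in BALB/c and 0.283 to 0.858 against 67.7 to 207 CPM in SCID-beige mice (log2 fold changes -5.79 ± 0.69 and -7.84 ± 0.42, adjusted p = 1.6e-04 and 2.8e-08, edgeR). Mmp28, an Mmp of epithelia and keratinocytes, was higher in D2.1 throughout, with log2 fold changes of 4.14, 2.46 and 1.96 in culture, BALB/c and SCID-beige tumors (adjusted p = 5.1e-05, 3.5e-05 and 1.6e-06, edgeR). Mmp25, a membrane Mmp known from leukocytes, was higher in D2.1 tumors by 2.07 and 3.40 (adjusted p = 8.6e-04 and 7.5e-05, edgeR), and in D2A1 tumors it was higher in BALB/c than in SCID-beige mice by 2.50 ± 0.51 (adjusted p = 0.039, edgeR).

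Of 21 activators and inhibitors around these proteases, 8 of 11 tested were higher and 2 lower in cultured D2.1 cells, 3 of 17 and 4 in BALB/c tumors, and 3 of 15 and 6 in SCID-beige tumors, beside the shares of 44.9%, 32.6% and 32.1% called among all genes in the same order. Plat, tissue plasminogen activator, was higher in D2.1 throughout (log2 fold changes 3.07, 1.63 and 1.69, adjusted p at most 1.7e-04, edgeR). Lrp1, the receptor that takes up protease and inhibitor complexes, was at 698 against 59.9 CPM in culture (3.67 ± 0.15, adjusted p = 6.7e-07, edgeR). Reck, a membrane-bound inhibitor of Mmp2, Mmp9 and Mmp14, was lower in cultured D2.1 cells, at 0.309 against 4.63 CPM (-3.81 ± 0.58, adjusted p = 8.5e-04, edgeR). Lcn2, which forms a complex with Mmp9, was at 22.8 CPM in cultured D2.1 and 0.0965 CPM in D2A1 cells (7.95 ± 1.26, adjusted p = 0.0011, edgeR), whereas in SCID-beige tumors it was lower in D2.1, at 5.97 against 19.6 CPM (-1.65 ± 0.44, adjusted p = 0.011, edgeR). Between SCID-beige tumors and culture its line difference changed by -9.59 ± 1.24 (adjusted p = 3.6e-05, edgeR).

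Of 16 related metalloproteinases of the Adam and Adamts families and tolloids, 9 of 13 tested were higher and 2 lower in cultured D2.1 cells, 4 of 16 and 4 in BALB/c tumors, and 2 of 15 and 4 in SCID-beige tumors (all genes, 44.9%, 32.6% and 32.1%). Adamts5, an aggrecan-cutting enzyme, was higher in D2.1 by 4.25, 1.77 and 1.77 on the log2 scale in the 3 settings (adjusted p = 7.1e-06, 0.0020 and 9.2e-05, edgeR). Adam12 was lower in D2.1 tumors, with log2 fold changes of -2.30 ± 0.44 and -3.94 ± 0.32 in BALB/c and SCID-beige mice (adjusted p = 0.0029 and 1.0e-06, edgeR). Among 15 regulators, 7 of 13 tested were higher and 3 lower in culture, 3 of 15 and 1 in BALB/c tumors, and 3 of 15 and 2 in SCID-beige tumors, against the same shares of all genes (44.9%, 32.6% and 32.1%). Egfr was at 87.6 against 2.07 CPM in culture and higher in D2.1 by 5.52, 3.90 and 4.40 (adjusted p = 2.3e-06, 2.2e-06 and 2.6e-07, edgeR). Jun, a part of AP-1, was higher in D2.1 tumors by 1.12 and 1.17 (adjusted p = 1.4e-04 and 8.3e-04, edgeR). Syn1, a synapsin gene that spans Timp1 on the other strand without shared exon bases, was higher in cultured D2.1 cells (log2 fold change 1.31) and lower in BALB/c tumors of D2.1 (-2.59, adjusted p = 0.039 and 6.8e-04, edgeR), with at most 136 and 79 counts in a cultured and a tumor library.

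To see which transcripts varied alongside each member from tumor to tumor, deviations of log2 CPM from the group means were correlated over the 18 tumors, across 12717 protein-coding genes with a mean of at least 1 CPM. These are descriptions without a test, and tumors share depth and cell makeup. The nearest genes are the highest r picked out of 12717, and how high such values run for unrelated genes was not tested. Mmp3 and Mmp11 varied most alike of all pairs of members (r = 0.88), followed by Mmp2 with Mmp3 (0.72) and Mmp2 with Mmp11 (0.68). The 2 most deviant tumors of Mmp3 and Mmp11 were the same, D2.1 replicate 2 in BALB/c and D2.1 replicate 3 in SCID-beige mice. The former was also among those of Mmp2. Pairs of members were not correlated without such tumors. Timp1 and Timp3 varied in opposite directions (r = -0.66). The 3 genes nearest to Mmp2 were Susd2, C1qtnf2 and Ccdc80 (0.88, 0.84 and 0.83), to Mmp3 C2, Shc2 and Rarres2 (0.92, 0.92 and 0.90), and to Mmp11 Islr, Mpzl1 and Hsh2d (0.93, 0.90 and 0.89). Prelid3b and Por were near to Timp1 (0.92 and 0.92), and the genes nearest to Timp3 were Fam168a, Arhgef12 and Asap1 (0.94, 0.94 and 0.93). Mmp9 was nearest to Col5a3, Cxcl5 and Hs3st3b1 (0.81, 0.80 and 0.78), and without its 2 most deviant tumors these were 0.29, 0.59 and 0.75, whereas for the other 9 members the values without such tumors ran from 0.61 to 0.96. Mmp13 was nearest to Peg3, Qsox2 and Prss35 (0.81, 0.80 and 0.79), Mmp14 to Dnajc18, St3gal5 and Omd (0.86, 0.85 and 0.85), and Timp2 to Pcsk7, Mrgprf and Gm2115 (0.86, 0.85 and 0.84). The genes nearest to Mmp19 were Rsph3b, 9130023H24Rik and 4931406C07Rik (0.80, 0.78 and 0.76).

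The 10 genes lie on 7 chromosomes of GRCm38 in the GENCODE annotation. The gelatinase genes are Mmp2 at chr8:92827291-92853420 and Mmp9 at chr2:164940780-164955850. Mmp14 is at chr14:54431612-54445364, Mmp13 and Mmp3 are at chr9:7272514-7283331 and chr9:7445822-7455975, and Mmp11, Mmp19 and Timp3 are on chromosome 10, at chr10:75923222-75936496, chr10:128790910-128800824 and chr10:86300372-86349506. Timp1 is at chrX:20870166-20874735 and Timp2 at chr11:118301069-118355740. Mmp11 shares 155 exon bases with Chchd10 on the other strand, which had up to 519 counts in a cultured library against 146 to 358 for Mmp11, so that its level in culture holds an unknown share of such reads.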

How the data were processed

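RNA-seq was available for 24 libraries in 6 groups. The authors deposited read counts per gene and FPKM, and the submitters' processing notes name STAR and mm10. The counting program, annotation and strand setting are not given in the sources used here. In each table the deposited FPKM equalled counts divided by library total and 1 length per gene, within 0.01%, for 100% of the genes checked. Rows with identifiers matched to no symbol held 0.0969% of counts in cells and 0.00594% in tumors.

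Counts were tested with edgeR 4.0.16 in R 4.3.3 (TMM, filterByExpr, robust quasi-likelihood F test) across all genes, with Benjamini-Hochberg adjustment and a threshold of 0.05, with only the groups of each comparison in the fit. The SE beside a log2 fold change was derived from that test, as the absolute log2 fold change divided by the square root of F. It is therefore approximate. DESeq2 1.42.0, its size factors in edgeR, a minimum of 10 counts, no filter, a replicate block, 1 fit of all 18 tumors and leaving out each library were alternatives. Leaving out the libraries with milk or skin transcripts, or those with muscle transcripts, were alternatives chosen after seeing the data. The tests were tried on simulated counts with the spread fitted by edgeR and 200 genes changed by 2 on the log2 scale. Over the comparisons, false calls made up 2.67% to 7.25% of edgeR's calls and 13.48% to 21.95% of DESeq2's. The members and lists were chosen with earlier results of these data known. From each of the other lists, up to 4 genes with the largest called fold change and at least 1 FPKM in the higher group were eligible to be named per comparison, and for likeness the 3 genes of highest r, of which 1 is not reported here. Chchd10, Tmem198b and Syn3 are named for their overlap with members.

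Same-numbered libraries deviated together in culture (r = 0.18 to 0.49 over genes), in the lines of BALB/c tumors (0.10 to 0.49) and in D2A1 tumors against culture (0.13 to 0.27). This is a hint of pairing from the same data that no label explains. The main tests left such pairing out, and the replicate block was fitted only as an alternative. With it Timp2 in culture and Timp3 in D2A1 tumors against culture were called, which the main tests did not call. In the other comparisons at least 1 pair was at or under 0.1. Between hosts the values ran from -0.20 to 0.17 in D2.1 and from -0.44 to -0.19 in D2A1 tumors, so similar sizes also occurred with the opposite sign.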

Additional observations from a re-analysis of the deposited data

Results flagged for a closer look

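Among 40 sets of 4 or 5 tumors (10 transcripts in 4 groups), 3 held a tumor far from the rest of its group by Dixon's test, and chance gives about 1 in 20. Replicate 4 of the D2A1 tumors in SCID-beige mice had 155 CPM of Mmp9 against at most 64.3 CPM in the other 4, and 225 CPM of Mmp13 against at most 81.8 CPM. It also had the highest neutrophil (167 CPM), osteoclast (90.2 CPM), fibroblast (3859 CPM) and bone and cartilage (228 CPM) marker sums of its group. The other 4 tumors had 1419 to 2910 CPM of fibroblast and 129 to 209 CPM of bone and cartilage markers. The part of such cells in these levels was not tested. Replicate 4 of the D2.1 tumors in SCID-beige mice had 24.1 CPM of Timp3 against at least 60.1 CPM in the other 4. In the same tumor mammary epithelial markers summed to 1182 CPM (464 to 652 CPM in the other 4), muscle markers to 232 CPM (0.701 to 186 CPM), neutrophil markers to 38.7 CPM (97.8 to 131 CPM) and macrophage markers to 801 CPM (1078 to 1879 CPM). The part of these cells in the level of Timp3 was not tested.

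The difference between the lines was itself different in SCID-beige tumors and in culture for 4 transcripts by edgeR's test of that difference. The values were -3.50 for Mmp2, -3.67 for Mmp19, -2.42 for Timp1 and 1.21 for Timp2 on the log2 scale. Tumor and culture come from separate tables and differ in host cells and RNA handling, which cannot be told apart from growth in the fat pad.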

How the results depend on the processing

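DESeq2 called 2 members between hosts in D2A1 tumors, Mmp11 and Mmp13, where edgeR called 0, and the cause was not tested. In simulated counts of that comparison, 13.48% of DESeq2's calls and 5.34% of edgeR's were false. The simulation used the spread fitted by edgeR, so it cannot decide whether the calls of Mmp11 and Mmp13 are false. Every other count of called members stayed within 1.5 times its main value under DESeq2, its size factors, both filters, the replicate block and the fit of all tumors. With the replicate block the counts were 7 in culture, 7 and 6 between lines in BALB/c and SCID-beige tumors, 0 between hosts and for line by host, 10 for tumor against culture in either line and 5 for the line difference. Leaving out 1 library gave 5 to 7, 5 to 8, 6, 0, 0, 0, 9 to 10, 8 to 9 and 3 to 5 members in the order of the report.

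None of the transcripts whose value changed sign had been called by edgeR in that comparison. With 1 library left out, Timp3 in culture ran from -0.011 to 0.50, Mmp13 between lines in BALB/c tumors from -0.79 to 0.20, and Mmp3 between lines in SCID-beige tumors from -0.16 to 0.43. Between hosts in D2.1 tumors, Mmp13 ran from -0.41 to 0.35, Mmp14 from -0.16 to 0.16 and Mmp19 from -0.27 to 0.077. Between hosts in D2A1 tumors, Mmp3 ran from -0.34 to 0.27, Mmp9 from -0.61 to 0.028 and Timp3 from -0.62 to 0.050. For line by host, Mmp2 ran from -0.054 to 0.44, Mmp9 from -0.44 to 0.18 and Mmp19 from -0.058 to 0.25. Timp3 in D2A1 tumors against culture ran from -0.48 to 0.19, and Mmp14 in the change of the line difference from -0.12 to 0.19.

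Without the libraries with milk or skin transcripts, the host differences in D2.1 tumors were -0.12 for Mmp3, -0.17 for Mmp11, -0.98 for Mmp13 and -0.27 for Mmp14, and line by host was -0.40 for Mmp2, -0.0033 for Mmp3 and -0.39 for Mmp19. Without the D2.1 libraries of SCID-beige tumors with muscle transcripts, the line difference in SCID-beige tumors was -0.33 for Mmp3 and -0.051 for Mmp14, line by host was -0.047 for Mmp9, and the change of the line difference was -0.18 for Mmp14. These libraries changed no call of a member, and without them 36 in place of 133 genes of all tested were called between hosts in D2.1 tumors. Without a filter, Mmp14 was at -0.0016 between hosts in D2.1 tumors and at -0.0035 in the change of the line difference, and it was at -0.0069 between those hosts in the fit of all tumors. With the replicate block, line by host was -0.043 for Mmp9 and -0.00095 for Mmp19. Low counts in culture limit Mmp2, Mmp3, Mmp13 and Mmp19 most.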
